A study of Mus musculus with 2 samples.

Results

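The regions described here are open chromatin regions of mouse blood neutrophils whose summit lies inside an annotated exon but away from any promoter. They were taken from the list of peaks that the authors made from both replicates together and passed as reproducible (the pooled conservative list, kept by a threshold on IDR, the irreproducible discovery rate). Its 33147 listed intervals were merged where they overlapped into 24882 regions, each keeping the summit of its highest signal value. A region was kept when that summit was over 1 kb from every annotated transcription start site and fell in an exon of any gene, which left 816 regions, or 3.28% of all regions (95% Wilson interval 3.07 to 3.51). Of these, 210 summits lay in coding sequence, 314 in untranslated sequence and 292 in exons of noncoding transcripts. Applied to the list of 1 replicate, the same rule gave 937 regions in replicate 1 and 315 in replicate 2. Where transcripts disagreed about a base, coding came before untranslated and untranslated before noncoding.

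The series measured open chromatin by ATAC-seq, in which a transposase places sequencing adapters where DNA is accessible, in peripheral blood neutrophils of C57BL/6J mice, adult at 5 to 6 weeks of age. It held 1 group of 2 libraries, biological replicates 1 and 2, each made from 50000 cells, with sex not collected, no treatment named and no sorting step named. The replicates have separate biosample records and the same donor record, and the use of different mice for each is not stated, so the spread between them may be technical. With no condition to compare and no read counts used, the depth of each library is unknown. The comparisons are between kinds of region, with intervals that cover counting error only, and carry no p-value, since regions of the same libraries are not replicates.

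Most open chromatin away from promoters lies in introns and between genes, where enhancers bind transcription factors and loop to the promoters they act on. Exons can hold such elements too. A coding exon then carries the protein code and a factor's binding site in the same bases, and an enhancer in the last exon of a gene can act on its host or on a neighbour. In neutrophils and their precursors, the factors PU.1, C/EBP and RUNX occupy many distal elements, while CTCF marks insulators and the anchors of chromatin loops in most cell types.

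The labelled cell type was checked at promoters. A region overlapped 1 kb on either side of a start site at 7 of 12 neutrophil markers, including S100a8, S100a9, Csf3r and Cxcr2, while Ly6g, Mmp9, Camp, Ltf and Fpr1 had none. The same held for 7 of 7 B cell markers, 1 of 5 T cell, 1 of 4 NK cell, 2 of 5 monocyte, 1 of 5 erythroid and 1 of 4 platelet markers. The background is that 46.8% of all protein-coding genes had such a region. The part of other cell types in the exonic regions was not tested.

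Most exonic regions held a match to a known motif within 50 bases of the summit, as did most other regions. Examples are shown because the results on motifs below rest on such matches. Of all exonic windows, 27.1% held none of the 17 strings searched, beside 26.7% of intronic, 26.3% of intergenic and 25.5% of promoter windows. The strong regions of Prdm2, Coa5, Sf3b5, Rdh13, Gm37283 and Gm5893, described below, also held none. The examples in Chd7, Ddx25, Pik3r5 and Armc9 are not among the 6 strongest of their class. Each line gives the gene, the motif, the 30 bases as read from the mm10 genome and the strand that reads 5′ to 3′, with the motif in capitals. The first group lies in or at the edge of coding exons.
Sgtb, CTCF, chr13:104139724-104139753, plus strand: cgcttttgtCCTGCAGGGGGcagcagtttg
Zscan10, CTCF, chr17:23610705-23610734, minus strand: ccggtgtgaaCCAGCAGGTGGcgcagcaag
Synpo2l, CTCF, chr14:20661154-20661183, minus strand: cttcatgcagCCACTAGGGGGcaggagtta
Snx14, CRE, chr9:88404260-88404289, minus strand: gcgtgtcaccagTGACGTcaccatgcttgc
Chd7, CRE, chr4:8854103-8854132, minus strand: cgtagtcagggtTGACGTgttcggccagta
Olfr650-ps1, PU.1, chr7:104206361-104206390, minus strand: tcagccacgaaGAGGAAGTgaatgaagaac
Ddx25, C/EBP, chr9:35546897-35546926, minus strand: atgttatcaagTTGCGAAAagaggaactga
The motif lay 37 bases from the summit in Sgtb, 41 in Zscan10, 33 in Synpo2l, 29 in Snx14, 42 in Chd7, 14 in Olfr650-ps1 and 13 in Ddx25. The Snx14 stretch lies just outside the exon that holds the summit base. The Sgtb match runs across the edge of its exon, so part of it is outside the exon.

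The second group lies in exons of noncoding transcripts.
Gm48545, PU.1, chr10:19094454-19094483, minus strand: agcgcagatagGAGGAAGTgtcctcggagt
Gpc6, PU.1, chr14:117625565-117625594, plus strand: tgtttcagaatGAGGAAGTgaaagtctgtt
Gm17767, C/EBP, chr1:51509177-51509206, plus strand: taggtgtgctgTTGCAGAAgagctaatcag
Gm17767, AP-1, chr1:51509233-51509262, plus strand: tcacccaagcaTGAGTCAtcaaagcttaga
Pik3r5, C/EBP, chr11:68440237-68440266, minus strand: ctggagtcggaTTGCAGAAgagacagcagt
Armc9, RUNX, chr1:86179031-86179060, minus strand: atgtggctgctcTGTGGTaaggccagctct
E030044B06Rik, ETS, chr19:40873494-40873523, plus strand: ggcctgaggctCCGGAAGTgacgtgacgcg
The region in Gm17767, a long intergenic noncoding RNA, held both a C/EBP and an AP-1 match, 27 and 28 bases from its summit. The Armc9 match lay on the summit itself and that of E030044B06Rik 4 bases from it.

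Among coding exons, the highest signal value was at Snx14, which encodes a sorting nexin of the endoplasmic reticulum. The signal value is a score given by the authors to each peak, which the sources used here do not define, and it serves only to describe and rank peaks. The Snx14 region, chr9:88404072-88404496, had a signal value of 27.7 in the pooled list, 26.0 in replicate 1 and 20.9 in replicate 2 (mean of the replicates 23.4 ± 3.61, SD, n = 2). Its summit sat at the edge of exon 12 of 28 and 5683 bp from the nearest start site, which is its own. No other exonic region reached that value.

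Sgtb, a co-chaperone, had 22.8 in the pooled list at chr13:104139525-104140108, with 20.3 in replicate 1 and 18.03 in replicate 2. The summit lay in its last exon, exon 11, 29946 bp from its start site. Olfr650-ps1, an olfactory receptor gene that the annotation calls a polymorphic pseudogene, had 21.7 pooled at chr7:104205962-104206676, with 19.8 and 18.9 in replicates 1 and 2. Olfactory receptors form a large family of similar sequences, and how reads that match several members were placed is not given in the sources used here, so that value is uncertain. Prdm2, a zinc finger protein with a histone methyltransferase domain, had 20.3 pooled at chr4:143161634-143162518, with 18.8 in replicate 1 and 20.2 in replicate 2, and was the only region of these 6 with the higher value in replicate 2.

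The last pair of leading coding regions lay in long terminal exons of genes that are best known outside blood. Zscan10, a zinc finger factor of embryonic stem cells, had 19.8 pooled at chr17:23610306-23610881, with 18.5 and 16.4 in replicates 1 and 2. Synpo2l, an actin-associated protein of muscle, had 18.1 pooled at chr14:20660909-20661337, with 16.8 and 16.6. Neither gene had an open promoter, nor did Prdm2 and Olfr650-ps1, while Snx14 and Sgtb did.

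Untranslated exons held the second and the third highest values of all exonic regions. Coa5, an assembly factor of cytochrome c oxidase, had 26.3 pooled in its 3′ untranslated region (UTR) at chr1:37419442-37419787, with 23.0 in replicate 1 and 21.8 in replicate 2. Sf3b5, a small subunit of the spliceosome's SF3b complex, had 25.9 pooled at chr10:13008190-13008763, with 23.0 and 23.3. The Sf3b5 summit counted as 5′ UTR because its annotated exon of 3841 bp starts 3043 bp before the summit. Whether this region lies at a start site that is not annotated, and so is itself a promoter, was not tested.

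The other leading untranslated regions were all in 3′ UTRs. Dnajc15, a co-chaperone of mitochondria, had 23.7 pooled at chr14:77825117-77825472, with 22.4 in replicate 1 and 17.8 in replicate 2. Stk38l, a kinase of the NDR family, had 21.8 pooled, 20.3 in replicate 1 and 18.6 in replicate 2. St8sia4, which builds polysialic acid, had 21.3 pooled, 21.2 in replicate 1 and 16.2 in replicate 2. Rdh13, a mitochondrial retinol dehydrogenase, had 20.7 pooled, 18.8 in replicate 1 and 18.6 in replicate 2. All but Sf3b5 of these 6 genes had an open promoter, and the summits of Stk38l, St8sia4 and Rdh13 lay nearer to a start site of another gene than to their own.

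The strongest regions in noncoding exons were mostly in long noncoding RNA genes named only by number. Gm17767 had 23.7 pooled at chr1:51509058-51509412, with 22.0 in replicate 1 and 18.2 in replicate 2. Gm48545 had 21.7 pooled at chr10:19094255-19094682, with 19.3 and 19.4. Gm37283, E030044B06Rik and Gm5893 had 20.6, 20.4 and 19.6 pooled. The annotation labels Gm37283 TEC and not long noncoding RNA, though it was counted with the long noncoding RNA genes here. The fifth in order, at 20.2 pooled with 19.2 and 15.2 in the replicates, was in a retained-intron transcript of Gpc6, a glypican of the cell surface, 328284 bp from the nearest start site.

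**Figure D1:**
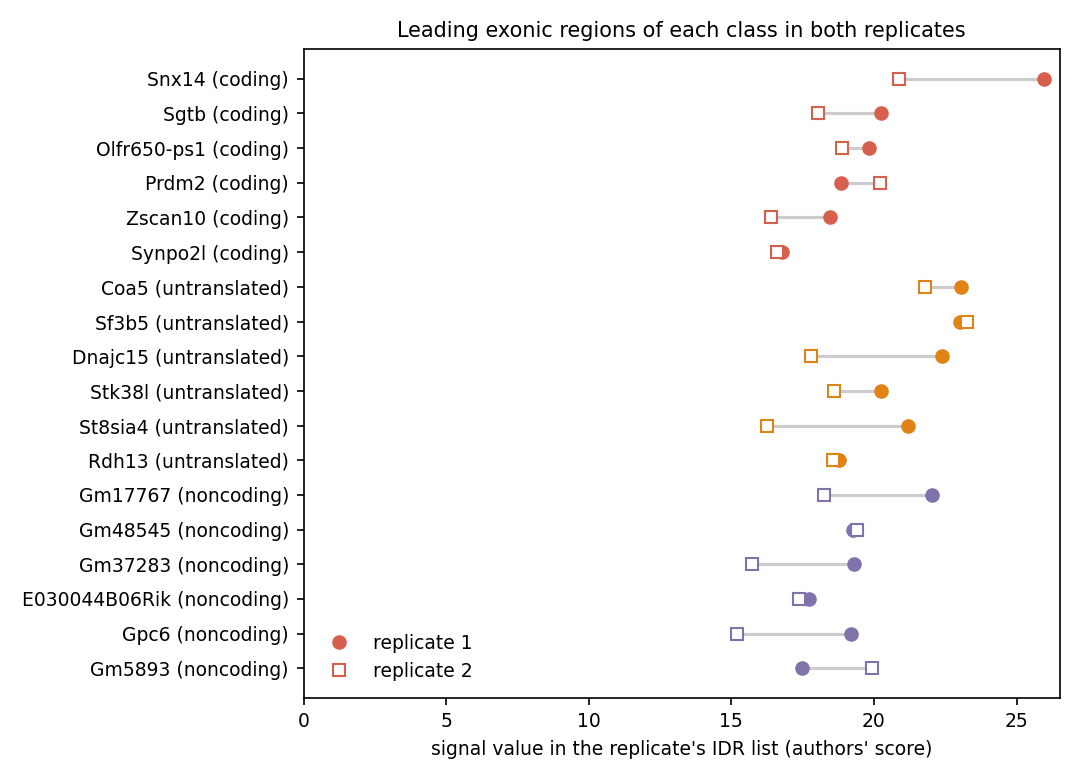
Signal value (x axis, the authors' score) of the 6 leading exonic regions of each class (y axis), with replicate 1 as filled circles and replicate 2 as open squares. All 36 values lie above 15, and replicate 2 is below replicate 1 at 14 of the 18 regions.

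Exonic regions were weaker on this scale than other distal regions. Their median signal value was 9.26 (quartiles 7.38 and 12.0), against 10.1 (8.13 and 12.8) for the 6498 intronic regions, 10.6 (8.36 and 13.4) for the 5924 intergenic regions and 12.5 (9.04 and 16.3) for the 11644 promoter regions. Coding, untranslated and noncoding exons differed little, with medians of 8.95, 9.18 and 9.51. The same order held among regions found in each replicate's own list, with a median replicate 1 value of 9.20 in exonic, 10 in intronic and 10.4 in intergenic regions. In replicate 2 the medians were 9.92, 10.4 and 10.7.

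Signal varied with distance from start sites. Among exonic regions with the nearest start site 1 to 2 kb away, the median signal value was 8.82 (219 regions), with 8.70 at 2 to 5 kb (261 regions), 10.2 at 5 to 10 kb (170 regions) and 9.99 at 10 to 50 kb (158 regions). Intronic regions showed 9.12, 9.41, 10.4 and 10.7 over the same distances. Within each of these 4 bands the exonic median was the lower. Beyond 50 kb it was the higher, at 11.0 from 8 exonic regions against 10.7 from 278 intronic ones. Exonic regions were also slightly narrower, with a median width of 331.5 bp against 346 bp in introns, 343 bp between genes and 543 bp at promoters.

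Nearly all exonic regions of the pooled list were also listed in replicate 1, and a minority in replicate 2. Membership rests on both libraries, so this is a description of where each region's support came from. The IDR list of replicate 1 held 719 of 816 exonic regions, or 88.1% (85.7 to 90.2), beside 91.9% of all pooled regions. That of replicate 2 held 305, or 37.4% (34.1 to 40.7), beside 57.2% of all pooled regions. The share in replicate 2 was 40.04% (38.9 to 41.2) for intronic, 42.98% (41.7 to 44.2) for intergenic and 75.3% (74.6 to 76.1) for promoter regions.

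Both lists held 302 exonic regions (37.0%, beside 56.5% of all pooled regions) and replicate 1 alone held 417 (51.1%, beside 35.4%). Replicate 2 alone held 3 (0.368%, beside 0.679%) and neither held 94 (11.5%, beside 7.45%). Intronic regions, at 39.6%, 49.7%, 0.446% and 10.2% in the same order, were nearer to the exonic shares. The 3 in replicate 2 alone were coding regions of Srcin1, Cdh22 and Tmc8, named after their values were seen, with pooled signal values of 8.79, 7.34 and 6.67. The strongest regions listed in replicate 1 alone were in coding exons of Ncam2, a neural cell adhesion molecule, at 18.8 pooled and 17.9 in replicate 1, and Msr1, the macrophage scavenger receptor, at 18.6 and 17.9. The less strict list of replicate 2 did hold both, at 11.6 for Ncam2 and 10.3 for Msr1. Of all exonic regions, 736 (90.2%, 88.0 to 92.1) were in that less strict list, beside 91.5% of intronic and 94.1% of all regions.

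When regions of like signal were set side by side, exonic regions were found in replicate 2 about as often as other distal regions. In the lowest band of pooled signal value among all distal regions (up to 8.86), replicate 2 held 15.8% of exonic (12.5 to 19.9), 13.2% of intronic (11.8 to 14.6) and 13.0% of intergenic regions (11.5 to 14.6). In the middle band it held 39.0%, 36.4% and 36.1%. In the highest band (above 12.0) it held 74.0% of exonic (67.6 to 79.6), 73.2% of intronic (71.3 to 75.1) and 74.5% of intergenic regions (72.6 to 76.3). The lowest band took 44.9% of exonic regions, against 34.1% of intronic and 30.9% of intergenic ones.

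**Figure D2:**
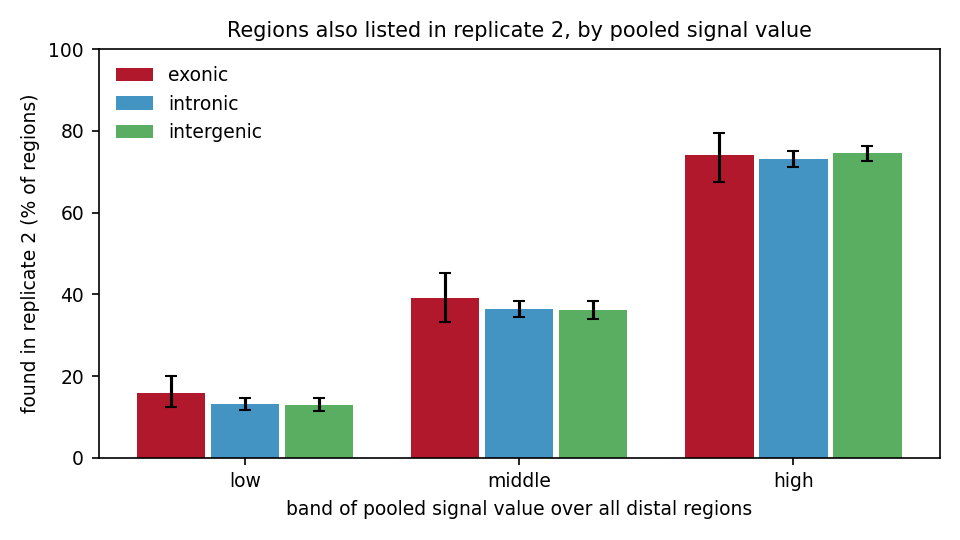
Share of regions (y axis, percent) overlapping the IDR list of replicate 2, for exonic, intronic and intergenic regions in bands of pooled signal value over all distal regions (x axis). Error bars are 95% Wilson intervals, which overlap between the kinds of region in every band.

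Across the 302 exonic regions in both lists, Spearman's rho between the 2 replicates' signal values was 0.774, against 0.743 over 2573 intronic regions. These are descriptions across regions of the same libraries. Replicate 2 gave the higher value at 33.1% of the exonic regions, and at 44.1% of the coding ones.

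Exons held more open summits per base than introns or intergenic sequence. Exons outside promoters covered 84.3 Mb, or 3.39% of all distal bases, and took 6.16% of distal summits (5.77 to 6.59). That is 9.68 summits per Mb in exons (95% exact Poisson interval 9.03 to 10.4), against 6.404 in introns (6.25 to 6.56) and 4.27 between genes (4.16 to 4.38). Within exons the densities were 8.33 per Mb in coding (7.24 to 9.54), 9.97 in untranslated (8.90 to 11.1) and 10.6 in noncoding sequence (9.40 to 11.9).

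The ratio to introns was smaller among bases at like distances from a start site up to 20 kb, a comparison added after the data were seen. The exonic density was 1.51 times the intronic one over all distal bases (95% exact interval 1.40 to 1.63). It was 1.20 times (1.03 to 1.40) at 1 to 2 kb, 1.10 times (0.960 to 1.25) at 2 to 5 kb and 1.16 times (1.02 to 1.32) at 5 to 20 kb. Beyond 20 kb it was 1.76 times (1.35 to 2.27), from 65 exonic summits. Outside soft-masked repeats, where 756 exonic summits lay, it was 1.29 times (1.19 to 1.39).

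The classes of exon differed in this respect outside repeats, while their intervals overlapped in each band of distance. Coding exons had 1.301 times the intronic density over all distal bases (1.13 to 1.49) but 1.01 times outside repeats (0.873 to 1.16). By distance from a start site, the coding ratio was 1.25 at 1 to 2 kb (0.930 to 1.64), 0.959 at 2 to 5 kb (0.733 to 1.23), 0.891 at 5 to 20 kb (0.692 to 1.13) and 1.84 beyond 20 kb (1.16 to 2.78). It was thus below 1 in the 2 middle bands, with intervals that include 1. Untranslated exons kept 1.37 times (1.21 to 1.54) and noncoding exons 1.52 times (1.34 to 1.72) outside repeats. The intervals cover counting error only, and neighbouring regions of the genome are not independent.

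**Figure D3:**
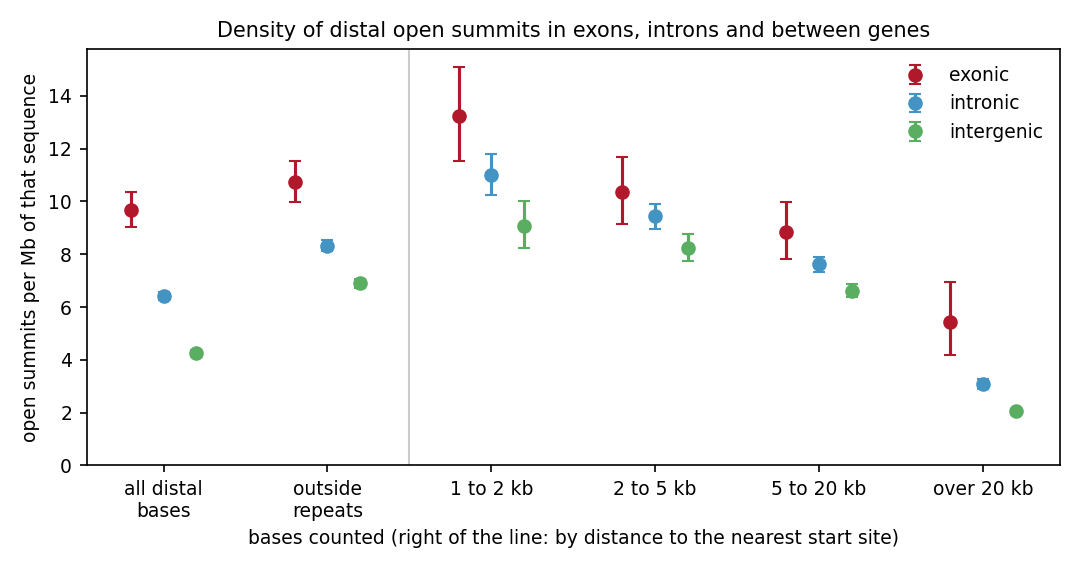
Open summits per Mb (y axis) in exons, introns and between genes, over all distal bases, over bases outside soft-masked repeats, and in bands of distance to the nearest start site (x axis), with 95% exact Poisson intervals. Exons lie highest in each column, and their interval overlaps that of introns in the 3 bands from 1 to 20 kb.

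Most untranslated members lay in last exons and in 3′ UTRs. The rule drops summits within 1 kb of a start site, where 5′ UTRs begin. The share of distal untranslated bases in 3′ UTRs or last exons was not computed, so the counts have no background. Of the 314 untranslated members, 297 were in a 3′ UTR and 17 in a 5′ UTR, and 284 (90.4%, 86.7 to 93.2) were in the last exon of a transcript. Their exons were long, with a median of 2603.5 bp, so that 260 regions lay wholly inside the exon. The summit was within 1 kb of the transcript's end at 148 of them (47.1%, 41.7 to 52.7).

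Coding members lay in shorter exons than untranslated ones, and their summits were nearer to an exon edge. The median coding exon was 275 bp long and the median distance from summit to exon edge was 71.5 bp. In untranslated exons these were 2603.5 bp and 576 bp. Whether coding summits lay nearer to an edge than exon length alone would place them was not tested. Of the coding regions, 55 of 210 coding regions (26.2%, 20.7 to 32.5) were wholly inside the exon, so most reached into the neighbouring intron. At 134 of the 210 the exon was internal. For 75 of the 210, another transcript gave the summit base a different class.

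The noncoding members were split between genes counted as long noncoding RNA and transcripts of protein-coding genes. Genes counted as long noncoding RNA held 164 of the 292. These include genes that the annotation labels TEC, a type apart from its long noncoding RNA types, and their share was not computed. Noncoding transcripts of protein-coding genes such as retained introns held 124, and pseudogenes held 4. Pseudogenes share sequence with their parent genes, and those 4 are uncertain for that reason. Noncoding members lay nearest to start sites, at a median of 2856 bp, against 4259 bp for coding and 5009.5 bp for untranslated members.

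Exonic summits outside the promoter limit were still closer to start sites than other distal summits, with a median of 3799 bp against 7427 bp in introns and 10370.5 bp between genes. The members nearest to the 1 kb limit were in Fkbp3, 1001 bp from a start site with a pooled signal value of 12.9, and in Gpr153, 1004 bp away with 6.02. Just under the limit, and so left out, were exonic regions in 0610025J13Rik, 994 bp away with 10.7, and Dmpk, 993 bp away with 6.32. At 58 of the 816 members the interval, though not the summit, reached to within 1 kb of a start site.

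For 270 of 816 exonic regions (33.1%, 29.9 to 36.4) the nearest start site belonged to a gene other than one whose exon held the summit. The share was 46.5% (41.1 to 52.0) in untranslated, 26.2% (20.7 to 32.5) in coding and 23.6% (19.1 to 28.8) in noncoding exons. Among intronic regions it was 30.5% (29.4 to 31.6) for the genes whose introns held them. It was 56.2% of exonic regions when each gene was given its 5′-most start site alone.

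The protein-coding genes that hold these regions mostly had an open promoter, meaning any pooled region within 1 kb of a start site. A member whose interval reached that near to a start site of its gene could itself count. Intervals reached within 1 kb of any start site at 11.3% of noncoding, 7.14% of coding and 3.18% of untranslated members. For intronic regions it was 2.68%. The shares below were not computed without such regions. Of the 631 with an exonic region, 2.88% of all protein-coding genes, 426 had an open promoter (67.5%, 63.8 to 71.1). This compares with 71.1% (69.5 to 72.6) of the 3243 with an intronic region and the 46.8% of all protein-coding genes given above. It was 62.3% (55.5 to 68.6) for genes with a coding, 66.3% (60.9 to 71.4) with an untranslated and 80.3% (72.4 to 86.4) with a noncoding member. An intronic region was also present in 217 of the 631 (34.4%, 30.8 to 38.2), against 14.8% of all protein-coding genes.

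Few genes held more than 1 exonic region: 774 held 1, 29 held 2 and Iqce held 3. Iqce, a protein of the primary cilium, had regions in its 3′ UTR at chr5:140663660-140664229 and chr5:140662794-140663291 and in a retained-intron transcript at chr5:140684620-140684833. Their pooled signal values were 8.27, 7.83 and 7.58. Replicate 1 listed all 3, at 7.36, 6.57 and 7.51, and replicate 2 listed the pair in the 3′ UTR, at 7.42 and 8.41.

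Of the genes with 2 regions, Armc9, another ciliary protein, had the strongest, at 19.6 pooled in a noncoding transcript with 18.2 in replicate 1 and 16.1 in replicate 2. Its other region had 8.64 pooled. Naa40, which acetylates the N termini of histones, had 17.6 in a coding exon of a transcript subject to nonsense-mediated decay and 8.83 in its 3′ UTR. Fam149b had 16.9 in its 3′ UTR and 12.0 in a coding exon, and Ddx25, an RNA helicase of the testis, 16.3 in a coding exon and 11.0 in its 3′ UTR. Itsn1, an endocytic scaffold, had 14.4 in its 3′ UTR and 13.3 in a coding exon. Rnf141 had 13.6 and 11.0, and Kmo, the kynurenine 3-monooxygenase, had 13.3 in its 3′ UTR and 7.40 in a coding exon.

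Genes with known roles in neutrophils were among the hosts, though few of any list. Of 30 genes for granule and antimicrobial proteins, 3 held an exonic region, beside 2.88% of all protein-coding genes. Mmp8, the neutrophil collagenase, had 18.3 pooled in its 3′ UTR at chr9:7567349-7567727, with 16.4 in replicate 1 and 14.4 in replicate 2. That summit held a C/EBP match and lay nearer to the start site of Mmp27, another matrix metalloproteinase, at 3826 bp than to that of Mmp8 at 9114 bp.

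The other 2 granule-list genes encode proteases too. Adam8, a membrane metalloproteinase of leukocytes, had 13.8 pooled in coding exon 19 of 24 at chr7:139984498-139985035, with 13.8 and 10.6 in replicates 1 and 2. Mmp25, a membrane-bound metalloproteinase of neutrophils, had 13.2 pooled in its 3′ UTR at chr17:23630163-23630493, with a CTCF match. Replicate 1 listed the Mmp25 region at 12.2, and in replicate 2 it was in the less strict list only.

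Among 51 receptors and adhesion proteins, 4 genes held a region (7.84%), beside 2.88% of all protein-coding genes. Tnfrsf1b, a receptor for tumour necrosis factor, had 11.5 pooled in its 3′ UTR, with 10.4 in both replicates. Cd33, an inhibitory receptor that binds sialic acid, had 11.0 pooled in a retained-intron transcript, with 9.91 in replicate 1 and 10.7 in replicate 2. Cd300lf, an inhibitory receptor of myeloid cells, had 9.84 pooled and was listed in replicate 1 alone, and Il17ra, the receptor of interleukin 17, was the fourth.

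Of 31 genes of the NADPH oxidase and phagocyte signalling, 3 held a region (9.68%), beside 2.88% of all protein-coding genes. Pik3r5, a regulatory subunit of phosphoinositide 3-kinase gamma, had 14.1 pooled at chr11:68440128-68440478, with 13.7 in replicate 1 and 9.80 in replicate 2. Syk, the kinase downstream of Fc receptors and integrins, had 7.92 pooled, with 7.78 and 7.14. Rgs2, which turns off G protein signals, had 5.03 pooled. Of 42 genes of NF-kB, cytokines and the inflammasome, 2 held a region (4.76%), beside the same 2.88%. Zfp36l1, which promotes messenger RNA decay, had 6.22 and Nfkb2, a subunit of NF-kB, had 4.63. The Nfkb2 region was in neither replicate's IDR list.

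The 30 genes of the actin cytoskeleton and migration included 4 hosts. The strongest was at the overlapping 3′ ends of Vcl, the adhesion protein vinculin, and Ap3m1, an adaptor of vesicle transport, at 19.0 pooled with 19.7 in replicate 1 and 12.0 in replicate 2. Lcp1, the actin bundler L-plastin, had 7.59 and Wasf2, an activator of the Arp2/3 complex, had 7.39. Fermt3, the integrin activator kindlin-3, had 6.13. The Wasf2 and Fermt3 regions were in neither replicate's IDR list, and the Lcp1 region was in that of replicate 1 alone. None of 31 genes for survival and metabolism held an exonic region, beside 2.88% of all protein-coding genes, which is less than 1 gene in a list of that size. An open promoter was present at 29 of the 31, beside 46.8% of all protein-coding genes.

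Among 40 myeloid transcription factors, Elf1, an ETS factor, had 9.81 pooled and Mafg, a partner of NF-E2 factors, had 6.97. Among 30 chromatin and general regulators 5 held a region, beside 2.88% of all protein-coding genes. Chd7, a chromatin remodeller, had 14.8 in coding exon 29 of 38 at chr4:8853952-8854524, with 14.2 in replicate 1 and 9.74 in replicate 2, and it lay 1071 bp from an annotated start site inside the gene. Ankrd11 had 11.2 and the histone deacetylase Hdac4 had 10.6, while Setd1b and Bcor were weaker.

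Lists of other blood cells also had hosts, at 5% of B cell and 10% of erythroid and platelet genes, beside 2.88% of all protein-coding genes. Spib, an ETS factor of B cells, was the host among 20 B cell genes and held 2 regions, of 7.29 pooled in its coding sequence and 5.58 in its 3′ UTR. Among 20 erythroid and platelet genes, Klf1, the erythroid Krüppel-like factor, had 10.2 in coding exon 2, with 9.58 and 9.82, and Fermt3 was the other. Neither Spib nor Klf1 had an open promoter. With so few hosts, the share of each list turns on single genes.

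Exonic summits had a higher median GC share than other distal summits, most of all in coding exons, which were also the richest in CpG. Within 50 bp of the summit the median GC share was 54.5% in exonic, 51.5% in intronic, 52.5% in intergenic and 62.4% in promoter regions. It was 57.9% in coding (quartiles 52.7 and 64.1), 54.5% in untranslated and 52.5% in noncoding exons. The CpG count relative to that expected from base composition had a median of 0.487 in coding, 0.274 in untranslated and 0.269 in noncoding exons, against 0.225 in introns, 0.277 between genes and 0.765 at promoters. Windows 1 kb away from coding summits, and outside any region, had a median GC share of 48.5% and a CpG ratio of 0.216. With a median coding exon of 275 bp, such windows mostly fall outside the exon. Coding exons without an open region were not measured.

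**Figure D4:**
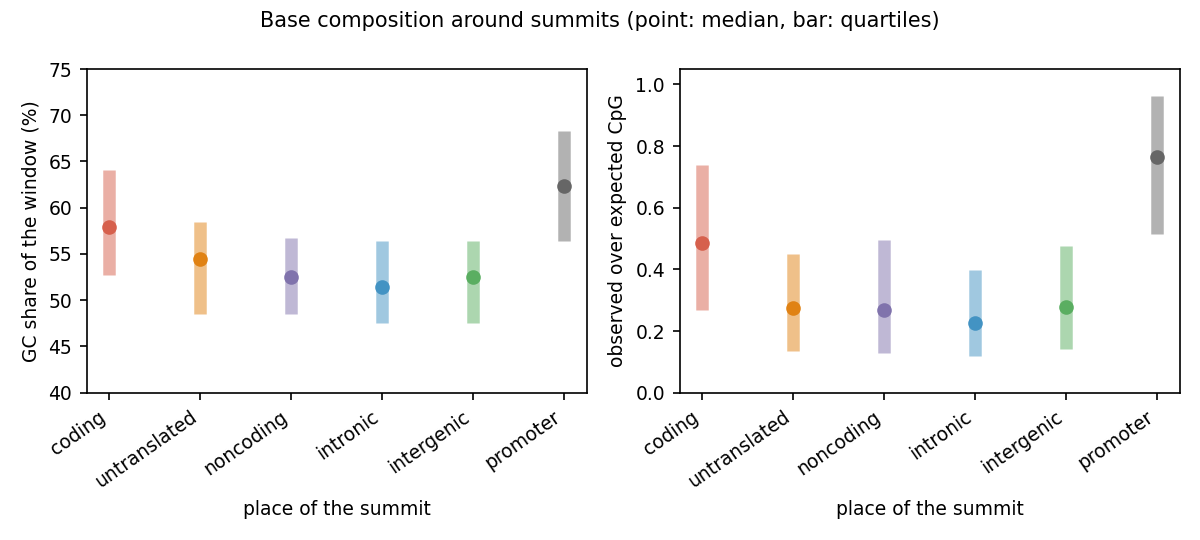
GC share in percent (left) and observed over expected CpG (right) within 50 bp of summits in coding, untranslated and noncoding exons, introns, intergenic sequence and promoters (x axis), as median (point) and quartiles (bar). Coding exons lie between the other distal regions and promoters on both scales; the GC axis starts at 40%.

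CTCF matches were frequent at exonic summits, mainly in coding and untranslated exons. The windows were searched on both strands for 17 fixed strings, of which PU.1 (GAGGAAGT), ETS (CCGGAAGT), C/EBP (TTGCNNAA), RUNX (TGTGGT), AP-1 (TGANTCA), CRE (TGACGT) and KLF and SP (GGGCGG) are described, with CTCF searched as a longer degenerate string. The PU.1 and ETS strings end in the same letters, and KLF and SP matches can overlap those of EGR, another of the strings. CTCF was found in 162 of 816 exonic windows (19.9%, 17.3 to 22.7), against 16.0% of intronic (15.1 to 16.9), 19.99% of intergenic (19.0 to 21.02), 5.38% of promoter and 12.1% of all windows. In windows 1 kb away from exonic summits it was found in 0.567%. Among regions above the median signal value of all regions, 11.1, the exonic share exceeded the intronic one by 0.457 points, against 3.85 points in all.

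The classes of exon differed in both CTCF and AP-1. CTCF matches were in 24.8% of coding (19.4 to 31.0), 23.2% of untranslated (18.9 to 28.2) and 12.7% of noncoding windows (9.33 to 17.0). AP-1, the motif of Fos and Jun factors, went the other way, with 1.43% of coding (0.487 to 4.12), 4.14% of untranslated (2.44 to 6.95) and 7.88% of noncoding windows (5.31 to 11.5). Over all exonic windows AP-1 was found in 4.78% (3.52 to 6.47), against 7.39% of intronic (6.78 to 8.05), 6.30% of intergenic and 4.74% of all windows.

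Base composition moved with both motifs. Among windows of 50 to 60% GC, CTCF was found in 19.0% of exonic (15.5 to 23.2) and 18.05% of intronic windows (16.8 to 19.4), and AP-1 in 4.01% of exonic (2.48 to 6.41) and 7.01% of intronic ones (6.20 to 7.93). Among windows of 60% GC and over, CTCF was found in 27.6% of exonic (21.8 to 34.3) and 21.6% of intronic windows (18.7 to 25.0). The intervals of exonic and intronic windows overlapped in each of these comparisons, which were added after the data were seen.

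The motifs of neutrophil factors were found in exonic windows at shares whose intervals overlapped those of intronic windows. PU.1, a master regulator of myeloid cells, was found in 7.97% of exonic (6.30 to 10.03), 9.53% of intronic (8.84 to 10.3) and 6.15% of all windows, and in 0.756% of windows 1 kb from exonic summits. C/EBP, whose epsilon member is needed for granule formation, was found in 7.23% of exonic (5.65 to 9.21), 6.402% of intronic (5.83 to 7.02) and 5.08% of all windows. RUNX was found in 13.4% of exonic (11.2 to 15.9), 15.6% of intronic (14.7 to 16.5) and 10.7% of all windows. Within 50 to 60% GC, a band also added after the data were seen, C/EBP was found in 8.52% of exonic (6.16 to 11.7), 4.89% of intronic (4.21 to 5.67) and 5.05% of intergenic windows (4.32 to 5.91), with the exonic interval apart from the others. In the other 3 GC bands the C/EBP intervals overlapped.

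Motifs typical of promoters were less frequent in exonic than in promoter windows. KLF and SP matches were in 11.4% of coding (7.80 to 16.4) and 7.60% of all exonic windows (5.97 to 9.62), against 5.69% of intronic (5.16 to 6.28), 38.0% of promoter and 21.1% of all windows. CRE was in 6.67% of coding (4.01 to 10.9), 4.17% of all exonic (2.997 to 5.77), 3.17% of intronic (2.77 to 3.62) and 5.18% of all windows. The promoter share of CRE, 7.51%, lay inside the interval of coding windows, so these were not apart from promoters. ETS was in 1.47% of exonic (0.843 to 2.55), 0.646% of intronic (0.479 to 0.872), 5.29% of promoter and 2.87% of all windows. A match is a run of letters and not a bound site.

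Signal differed between exonic regions with and without a motif by amounts that varied with the motif. The median pooled signal value was 10.2 for the 65 exonic regions with PU.1 and 9.18 for the 751 without, and 10.7 for the 34 with CRE and 9.23 for the 782 without. For CTCF it was 9.01 with and 9.39 without. Replicate 2 listed 54 of the 162 exonic regions with CTCF (33.3%) and 251 of the 654 without (38.4%).

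**Figure D5:**
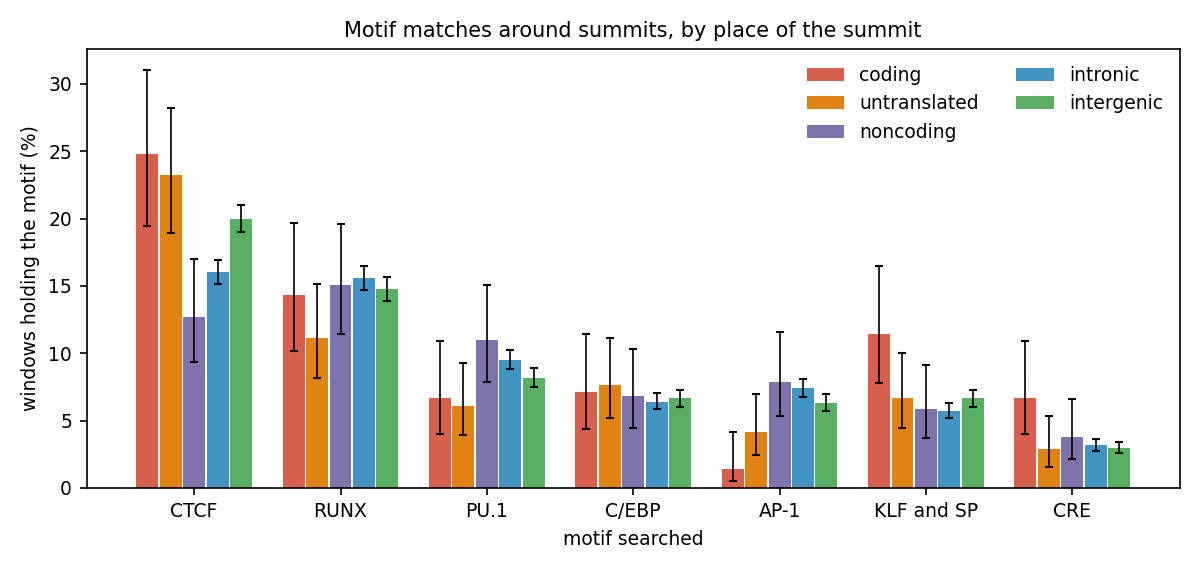
Share of windows (50 bp each way from the summit) that hold each motif (y axis, percent), for summits in coding, untranslated and noncoding exons, introns and intergenic sequence, with 95% Wilson intervals. The CTCF bars of coding and untranslated exons stand above that of noncoding exons, and the AP-1 bars run the opposite way.

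Many exonic regions lay near another open region. Another summit lay within 10 kb of 57.7% of exonic summits (54.3 to 61.1), against 52.2% of intronic (51.0 to 53.4) and 53.6% of intergenic ones (52.4 to 54.9), so that the exonic interval was apart from the intronic one alone. The summit base was soft-masked as a repeat at 60 of 816 exonic regions (7.35%, 5.76 to 9.35), against 9.65% of intronic (8.95 to 10.4) and 8.61% of intergenic ones (7.92 to 9.35), with overlapping intervals. Chromosome X held 5 of the 816, a count without background, since the share of other regions on that chromosome was not computed.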

How the data were processed

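ATAC-seq of mouse neutrophils was analysed in 2 libraries from the authors' deposited peak lists on mm10. Column 7, a score per peak, and column 10, the summit's place, were used as the authors deposited them. No header or label used here names the aligner, the peak caller, a version or read shifting. The score is not defined there, and no counts were used, so depth and the precision it gives are unknown. The members and gene lists were chosen with earlier results of these data known.

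Overlapping intervals of the pooled conservative list were merged, and summits over 1 kb from every GENCODE M21 start site were classed by the exon under them. Found in a replicate means an overlap of at least 1 bp with its IDR-thresholded list, or with its pseudoreplicated list where called less strict. Windows of 50 bp on either side of summits gave GC, CpG and motifs. Shares carry 95% Wilson intervals, densities exact Poisson intervals and ratios exact conditional intervals, all of counting error only. Named regions were the 6 strongest of each class found in both replicates, the 8 genes with most members, up to 3 per gene list, those nearest to the limit, and the 2 strongest in 1 replicate. Alternatives were other promoter limits, annotations, windows, lists and single replicates. Python 3.11.15, numpy 2.4.6, scipy 1.17.1, pysam 0.24.0, samtools 1.23.1 and matplotlib 3.10.9 were used, and the steps were tested on simulated data. The T and NK cell gene list is not reported here.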

Additional observations from a re-analysis of the deposited data

How the results depend on the processing

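Apart from the coding over intronic density, no value below that was called changed direction. The cause of each shift was not tested. The coding over intronic density was 1.301 (1.13 to 1.49) over all distal bases. It turned to 0.959 (0.733 to 1.23) at 2 to 5 kb and 0.891 (0.692 to 1.13) at 5 to 20 kb. The 816 exonic regions became 532 with a promoter limit of 2.5 kb, 265 above the median signal value of all regions, and between 315 and 937 from the list of a single replicate. Their share of distal regions, 6.16%, was 7.26% with a limit of 500 bp, 4.73% with 2.5 kb, 5.10% with basic transcripts, 4.89% with exons of protein-coding genes, 4.84% in stronger regions, 5.76% with 50% of the region in exons, and 5.71% to 6.02% from single replicates. Coding, untranslated and noncoding members made up 25.7%, 38.5% and 35.8% of the exonic regions. Untranslated and noncoding shares were 34.96% and 39.5% with a limit of 500 bp and 43.6% and 30.1% with 2.5 kb. The coding, untranslated and noncoding shares were 30.7%, 45.0% and 24.3% with basic transcripts, 32.3%, 48.5% and 19.2% with protein-coding genes, and 16.5%, 34.8% and 48.7% with the order of classes reversed. Class shares with 50% of the region in exons were not run.

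The less strict lists held 99.9% of members in replicate 1 and 90.2% in replicate 2, beside 99.8% and 94.1% of all regions. The median signal of exonic minus intronic regions, -0.87, was -0.65 in the pooled optimal list, -0.57 with 2.5 kb and -0.66 to -0.47 from single replicates. Against intergenic regions, -1.30 became -1.07, -0.94 and -1.06 to -0.74. The GC difference from introns, 2.97 points, was 1.98 with 2.5 kb and 1.98 in stronger regions. That from intergenic regions, 1.98, was 2.79 within 250 bp and 0.990 with 2.5 kb. The CpG difference from introns, 0.107, was 0.0830 within 100 bp, 0.0691 within 250 bp, 0.0936 with 2.5 kb and 0.111 in stronger regions. Against intergenic regions, 0.0545 became 0.0457, 0.0420, 0.0405 and 0.0517.

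The AP-1 difference from introns, -2.61 points, was -3.19 within 100 bp, -5.15 in stronger regions and -2.57 to -2.44 from single replicates. The CTCF difference, 3.85 points, was 0.457 in stronger regions and 3.99 to 4.96 from single replicates. The nearest start site was another gene's for 39.2% of members with protein-coding start sites and 56.2% with the 5′-most alone. Exonic density over intronic density was 1.29 outside repeats, 1.20 at 1 to 2 kb, 1.10 at 2 to 5 kb, 1.16 at 5 to 20 kb and 1.76 beyond 20 kb. Over intergenic density it was 1.56, 1.46, 1.26, 1.34 and 2.66. Motif differences that were not called sometimes changed sign, as for PU.1 against introns, -1.56 points, which was 0.454 with 2.5 kb and -3.71 without replicate 1. No paired analysis was possible because the series has 1 group. Depth is unknown, so detection limits cannot be given.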
